A study of Mus musculus with 72 samples.

Results

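The 17 cells described here are single neurons hand-picked from the midline of the mouse dorsal raphe (DR), 9 from its dorsomedial subdomain (dmDR) and 8 from its ventromedial subdomain (vmDR). They were taken by their labels from the 70 manually sorted cells of the series and addressed which transcripts distinguish serotonin neurons lying dorsally from those lying ventrally along the midline. Both groups had the genotype Sert::cre+/-;Pet1::Flpe+/-;RC::FrePe+/-. In such mice EGFP marks a cell whose lineage has used both the Slc6a4-cre transgene, driven by serotonin transporter regulatory sequence, and Pet1-Flpe, so the label records past as well as present activity of both drivers. Of the dmDR cells, 6 came from mice at postnatal day 63 (P63) and 3 from mice at postnatal day 90 (P90), and of the vmDR cells 4 came from each age. Each cell was one full-length (SMART-Seq v4) library. With cells of both ages, each group came from at least 2 mice, but the labels name no animal for a cell. Cells could therefore not be summed by animal, each group was treated as 1 sample with no test between the groups, and the SD given below is the spread between cells. No pair among the 17 cells had identical counts.

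Serotonin neurons of the DR make serotonin from tryptophan through Tph2 and Ddc, load it into vesicles through Slc18a2 and take it back up through Slc6a4, and the ETS-family factor Pet1 (gene symbol Fev) maintains this program. Many of these neurons also carry genes for a second transmitter. Gad1 and Gad2 encode the enzymes that make GABA, and Slc17a8 encodes VGLUT3, a vesicular transporter that lets a serotonin neuron release glutamate. Cells with one or the other gene are known to be unevenly distributed along the dorsoventral axis of the nucleus.

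Reads assigned to genes ranged from 3047128 to 5340551 per dmDR cell and from 2303574 to 5311583 per vmDR cell, so that a level of 10 CPM (reads scaled to a common total per cell) stood for at least 23.0 reads in every cell. Between 7379 and 10605 genes had a read in a dmDR cell and between 8024 and 10719 in a vmDR cell. Mitochondrial genes took 1.54 to 2.90% of reads in dmDR cells and 1.13 to 17.1% in vmDR cells, the highest shares being those of vmDR cell 8 (17.1%) and vmDR cell 2 (7.32%). None of the 8 microglial genes was at 10 CPM in any cell. The 5 dopamine neuron markers summed to 0 to 27.9 CPM in dmDR cells and 0 to 0.775 CPM in vmDR cells. In dmDR cells 3, 7 and 9, 1 of them was at 10 CPM or more, and in no vmDR cell. The 10 vessel and blood markers summed to 0 to 6.30 CPM in dmDR cells and 0 to 16.9 CPM in vmDR cells, and 1 of them reached 10 CPM in 1 cell, the haemoglobin gene Hbb-bt at 15.3 CPM in vmDR cell 8, the cell with the highest mitochondrial share. The 7 astrocyte markers summed to 1247 to 2940 CPM in dmDR cells and 530 to 1373 CPM in vmDR cells. Nearly all of that sum was Aldoc, and the defining marker Aqp4 was at 0 in all 17 cells. A further astrocyte marker was at 10 CPM or more in 4 dmDR and 4 vmDR cells, the highest being Gfap at 48.8 CPM in dmDR cell 4. The 9 oligodendrocyte markers summed to 51.9 to 293 CPM in dmDR cells and 54.0 to 180 CPM in vmDR cells, with 1 to 3 of the 9 at 10 CPM or more in every cell, mainly Cnp and Mbp, while Olig1, Olig2 and Mobp were at 0 throughout. The members that passed the filter described below, 2 astrocyte and 3 oligodendrocyte genes, had median log2 differences of 1.31 and 0.88 toward dmDR, none past 4-fold. The part of Aldoc, or of any glial, vessel, blood or dopamine neuron transcript, in the differences below was not tested.

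Tph2, the rate-limiting enzyme, was lowest at 3442, median 11015 and highest at 16399 CPM in dmDR cells, and lowest at 5368, median 9526 and highest at 15234 CPM in vmDR cells. Its mean log2(CPM + 1) was 13.21 ± 0.67 (SD, n = 9) in dmDR and 13.21 ± 0.55 (SD, n = 8) in vmDR cells, a difference of 0.00. All 17 cells thus held the defining transcript of a serotonin neuron. Slc6a4 had a median of 4744 CPM in dmDR and 3412 CPM in vmDR cells, and Fev 508 and 442 CPM, with overlapping ranges. Of the 12 genes for serotonin synthesis and handling, all passed the filter of 10 CPM in at least 4 of the 17 cells, and 10 were higher in dmDR (83.3%, beside 52.8% of all tested genes). These differences on the log2 scale included 0.50 for Ddc and 1.29 for Slc29a4, a plasma membrane monoamine transporter, while Maob, a monoamine oxidase, had a difference of 1.51 at P63 and -2.02 at P90. The 1 gene past 4-fold, beside 2.33% of all tested genes in that direction, was Slc22a3, a low-affinity organic cation transporter that carries monoamines, at 10 CPM or more in 8 of 9 dmDR and 4 of 8 vmDR cells. Its median was 122 CPM against 25.3 CPM, and its mean log2 level was higher in dmDR by 2.29.

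The genes for the second transmitter separated most cells of the groups. Gad2 was at 88.0, 98.0, 262, 604, 76.6, 0, 0, 172 and 180 CPM in dmDR cells 1 to 9, and at 0 in 6 of the 8 vmDR cells, 6.51 CPM in vmDR cell 4 and 940 CPM in vmDR cell 3. The dmDR cells without Gad2, cells 6 and 7, both held Gad1, at 545 and 125 CPM. Gad1 or Gad2 was therefore at 10 CPM or more in 9 of 9 dmDR cells (exact Clopper-Pearson 95% interval 66.4 to 100%) and in 2 of 8 vmDR cells (3.19 to 65.1%). These intervals cover the counting of cells only, and reads without molecular identifiers are not independent molecules. Slc17a8 ran the other way. It was at 320, 447, 0, 0, 323, 145, 255 and 337 CPM in vmDR cells 1 to 8, whereas 6 of the 9 dmDR cells were at 0 and cells 1, 5 and 6 were at 111, 0.290 and 45.3 CPM. At 10 CPM or more it was found in 6 of 8 vmDR cells (34.9 to 96.8%) and 2 of 9 dmDR cells (2.81 to 60.0%). In both dmDR cells Slc17a8 was accompanied by a Gad gene, while 5 of the 6 vmDR cells with Slc17a8 held neither Gad1 nor Gad2 at 10 CPM. The sixth, vmDR cell 7, had Gad1 at 10.7 CPM. The other vesicular glutamate transporter examined, Slc17a6, was at 0 in all 17 cells, and the vesicular GABA transporter Slc32a1 had reads in vmDR cell 3 alone, at 13.4 CPM.

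**Figure D1:**
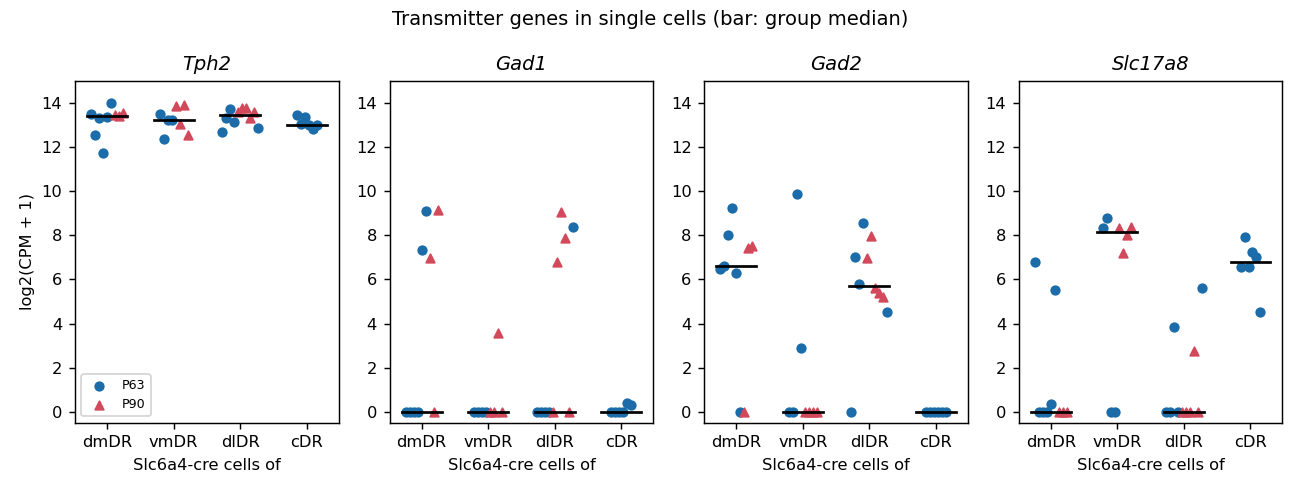
Levels of Tph2, Gad1, Gad2 and Slc17a8 in log2(CPM + 1), one point per Slc6a4-cre cell, by subdomain (dmDR n = 9, vmDR n = 8, and dorsolateral dlDR n = 10 and caudal cDR n = 6 for context), with age as colour and shape and the group median as a bar. Tph2 is high in every cell, whereas Gad2 sits mainly in dmDR and dlDR cells and Slc17a8 in vmDR and cDR cells.

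On the log scale Gad2 was higher in dmDR by 4.13 and Slc17a8 in vmDR by 4.72. The Gad2 contrast rested on how many cells held the transcript rather than on the total. Summed over cells, Gad2 stood at 153 CPM in dmDR (exact Poisson 95% interval 149 to 158, counting error only) and 102 CPM in vmDR (98.5 to 106), because vmDR cell 3 alone supplied nearly all vmDR reads. Taken as a ratio of mean CPM, the log2 difference of Gad2 was 0.47. For Slc17a8 the sums were 15.8 CPM (14.5 to 17.1) in dmDR and 233 CPM (227 to 238) in vmDR.

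Gad2 lies on chromosome 2 (22622205 to 22693874, plus strand) and Slc17a8 on chromosome 10 (89574020 to 89621253, minus strand) in the GENCODE vM21 annotation of GRCm38. Their promoter windows are shown as context for these transmitter genes, and no readout of the promoters was made. Each runs 5′ to 3′ on the gene's strand from 250 bases before to 50 bases after a RefSeq start (GRCm38.p6), at chr2:22622077-22622376 and, for the more upstream of 2 Slc17a8 windows, chr10:89621200-89621499. Capitals mark 2 motifs searched on both strands: the ETS core CCGGAA (the family of Pet1) and the SOX core ACAAT (the family of Sox14).
Gad2: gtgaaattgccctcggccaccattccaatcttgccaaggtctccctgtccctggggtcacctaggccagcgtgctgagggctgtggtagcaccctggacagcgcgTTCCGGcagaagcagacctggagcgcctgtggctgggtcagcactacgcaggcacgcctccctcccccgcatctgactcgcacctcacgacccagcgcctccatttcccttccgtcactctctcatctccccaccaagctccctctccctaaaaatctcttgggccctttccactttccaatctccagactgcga
Slc17a8: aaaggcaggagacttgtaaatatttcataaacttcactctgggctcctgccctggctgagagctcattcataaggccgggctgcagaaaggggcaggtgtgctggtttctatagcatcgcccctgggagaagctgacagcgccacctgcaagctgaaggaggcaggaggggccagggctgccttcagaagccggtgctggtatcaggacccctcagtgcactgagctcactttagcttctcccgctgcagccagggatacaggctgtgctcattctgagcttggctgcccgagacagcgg
The Gad2 window held 1 ETS core, on the opposite strand, and no SOX core. Neither set of letters occurred in the Slc17a8 window, which says only that they are not in these 300 bases. Among all 32851 windows the shares with a match were 14.9% for the ETS core and 31.0% for the SOX core. Counted per gene with any window matching, the SOX core was in 23.1% of 7826 tested genes, 21.7% of 180 genes higher in dmDR by 4-fold and 20.1% of 159 higher in vmDR. The ETS core was in 33.1%, 25.6% and 22.6% of the same sets.

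Across the transcriptome, 9799 genes passed the filter, and the median difference between the groups (dmDR minus vmDR, mean log2(CPM + 1)) was 0.05. By 4-fold or more, 228 genes (2.33%) were higher in dmDR and 208 genes (2.12%) were higher in vmDR. A pseudocount of 10 CPM, which damps genes near 0, left 13 and 15. The leading genes described next come from the 12 largest differences in each direction among those that also differed by at least 1 on the log2 scale, the same way, at both ages. Having been picked for this contrast, they describe it and are no evidence for it.

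Pcsk6, a proprotein convertase that cleaves secreted precursors, had the largest difference of the leading dmDR genes, 4.93. It was lowest at 36.8, median 127 and highest at 360 CPM in dmDR cells, against 0, 0.217 and 96.7 CPM in vmDR cells. Every dmDR cell held it above 10 CPM, as did vmDR cells 2 and 3. Prph, the intermediate filament peripherin, was at 0 to 990 CPM in dmDR cells (median 290) and 0 to 93.3 CPM in vmDR cells (median 2.39). It was higher in dmDR by 1.46 at P63 and by 7.83 at P90. Kit, the receptor tyrosine kinase for stem cell factor, was lowest at 2.61, median 73.6 and highest at 153 CPM in dmDR, and at 0 in 5 of 8 vmDR cells with a highest value of 97.7 CPM in vmDR cell 3.

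Serpine2, a secreted serine protease inhibitor, had a median of 195 CPM (16.0 to 433) in dmDR and 10.6 CPM (0 to 126) in vmDR cells. Sparcl1, a secreted matricellular protein, had a median of 284 CPM (29.6 to 900) in dmDR and 13.9 CPM (0 to 253) in vmDR cells. For both, the highest vmDR cells lay inside the dmDR range. Stxbp2, a syntaxin-binding protein of vesicle fusion, had a median of 126 CPM (14.8 to 191) against 1.27 CPM (0 to 158). Prmt8, a brain-enriched arginine methyltransferase, had a median of 116 CPM (5.58 to 156) against 2.08 CPM (0 to 330), and its highest value of all was again in vmDR cell 3.

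The remaining leading dmDR genes were less even. Spag5, which encodes a spindle-associated protein, was above 10 CPM in 8 of 9 dmDR cells (median 27.2, highest 126 CPM) and had reads in 1 vmDR cell, at 6.02 CPM. Oas1e, a gene of the oligoadenylate synthetase family, was at 0 in dmDR cells 1 and 6 and at 23.2 to 174 CPM in the other 7. Clic1, a chloride intracellular channel protein, was at 48.6 to 363 CPM in 5 dmDR cells and at 0 in the other 4. It had no read in any vmDR cell. Against a floor of 3 reads over the vmDR group, its summed level was 906-fold higher in these dmDR cells. That ratio depends on which cells were picked and is no lower bound for the subdomains. Wdr24, a subunit of the GATOR2 complex of amino acid sensing, was at 8.68 to 60.6 CPM in dmDR cells and at 0 in 7 of 8 vmDR cells, but vmDR cell 2 held 130 CPM, more than any dmDR cell.

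Nell1, a secreted glycoprotein with EGF-like repeats, had the largest difference of the leading vmDR genes, 4.93 higher in vmDR. It was lowest at 2.82, median 67.5 and highest at 203 CPM in vmDR cells, and at 0 in 7 of 9 dmDR cells. dmDR cell 1 was the exception, at 24.9 CPM. Pcdh7, a protocadherin, was present in all 8 vmDR cells (24.5 to 257 CPM, median 120) and in dmDR cells 1, 6 and 9 at 80.1, 81.6 and 15.0 CPM. Nrxn3, a presynaptic adhesion receptor, was at 110 to 815 CPM in vmDR cells (median 193) and 0 to 256 CPM in dmDR cells (median 8.44). Ntng1, a netrin-family membrane protein of axons, was at 16.0 to 392 CPM in 6 vmDR cells and at 0 in vmDR cells 3 and 4, the cells that also lacked Slc17a8. In dmDR it was found in cells 1 and 6, at 53.2 and 15.7 CPM.

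A pair of netrin receptors went opposite ways. Unc5c was at 0 in 6 of 9 dmDR cells and reached 18.9 CPM, whereas vmDR cells ranged from 5.24 to 88.3 CPM with a median of 56.5. Its difference was 4.41 in favour of vmDR, with 4.71 at P63 and 4.52 at P90. Unc5d was at 13.6 to 207 CPM in dmDR cells (median 131) and 0 to 130 CPM in vmDR cells (median 15.0), higher in dmDR by 2.85. Both genes encode UNC5-type receptors that mediate repulsion of growing axons.

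Tpbg, a membrane glycoprotein with leucine-rich repeats, had no read in any dmDR cell and stood at 35.3 to 529 CPM in 5 of 8 vmDR cells. Against a floor of 3 reads over the dmDR group, its summed level was 2022-fold higher in these vmDR cells. This ratio too is no lower bound for the subdomains. Grm7, a presynaptic metabotropic glutamate receptor, had a median of 56.5 CPM in vmDR (3.60 to 186) and 0 in dmDR (0 to 111). Klhl13, an adaptor of a ubiquitin ligase, and Mical2, an oxidase that acts on actin, were above 10 CPM in all 8 vmDR cells and in 3 and 4 of 9 dmDR cells. Dlk1, an imprinted membrane protein related to Notch ligands, had a median of 688 CPM in vmDR (9.60 to 1189) and 17.3 CPM in dmDR, where cell 4 held 1973 CPM, the highest value of all 17 cells.

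**Figure D2:**
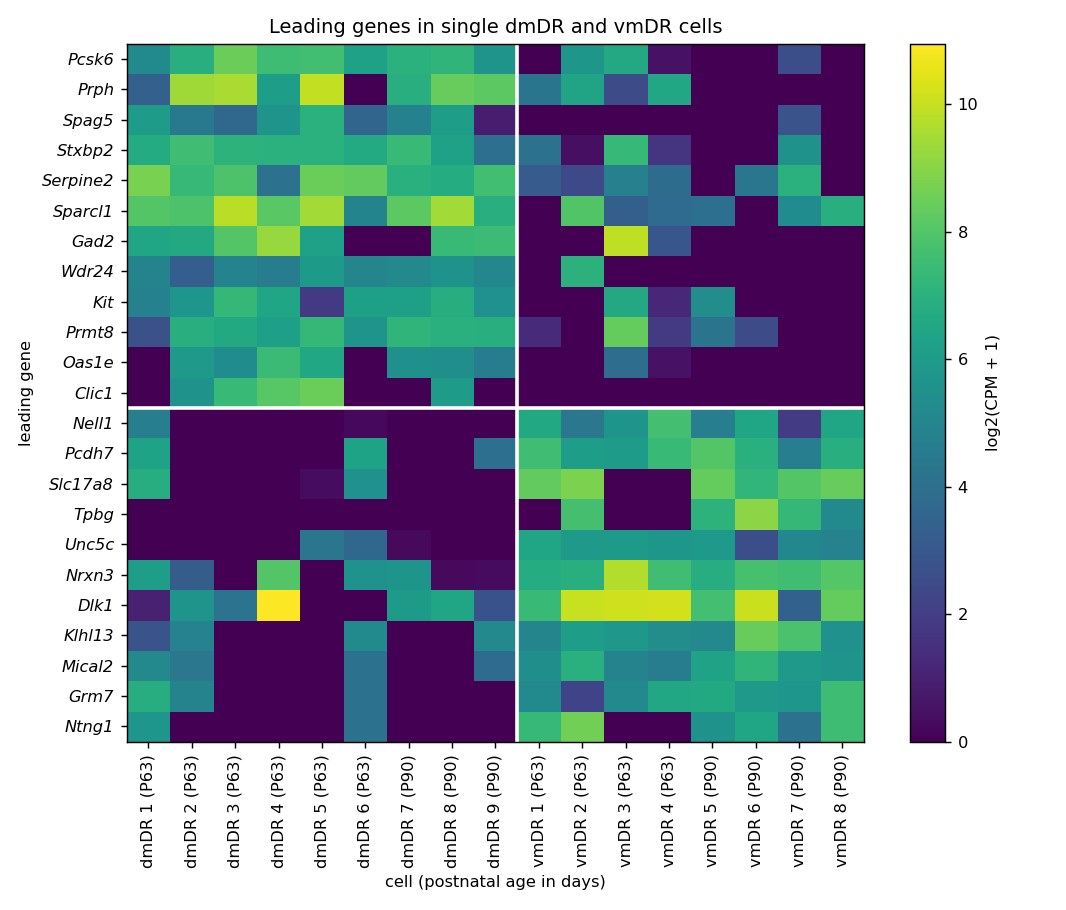
Heat map of log2(CPM + 1) for 23 of the 24 leading genes (rows) in each of the 9 dmDR and 8 vmDR cells (columns, with age). The upper left and lower right blocks are high by the choice of genes, while dmDR cells 1 and 6 and vmDR cell 3 hold many genes of the other block.

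The groups were not uniform, and 3 cells carried genes of both. dmDR cells 1 and 6 had 8 and 9 of the 12 leading vmDR genes at 10 CPM or more, whereas the other dmDR cells had 1 to 4. These were the dmDR cells with Slc17a8, and they also held Rspo3 (53.5 and 32.8 CPM), a secreted Wnt signalling enhancer, Adgrl2 (190 and 217 CPM), a latrophilin adhesion receptor, and Htr5b (74.8 and 136 CPM), a serotonin receptor at 0 in the other 7 dmDR cells. Both lacked Sox14 and Oas1e. dmDR cell 1 was the one cell with much Nos1, the neuronal nitric oxide synthase, at 513 CPM, and it held Crh at 133 CPM.

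vmDR cell 3 had 7 of the 12 leading dmDR genes at 10 CPM or more, and the other vmDR cells had 1 to 4. It was the vmDR cell with Gad2, lacked Slc17a8, and was the only vmDR cell with the transcription factors Sox14 (75.7 CPM) or Pax5 (31.0 CPM) above 10 CPM. Yet 9 of the 12 leading vmDR genes were also at 10 CPM in it, among them Nrxn3 at 815 CPM. vmDR cell 4 held neither a Gad gene nor Slc17a8 at 10 CPM. It had the highest Nell1 of all 17 cells, 203 CPM, and no Ntng1, Rspo3, Slit2 or Tpbg.

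Age was the only batch in the labels, and cells of different age cannot share an animal. The 2 ages therefore gave separate looks at the contrast, with 6 dmDR and 4 vmDR cells at P63 and 3 and 4 at P90. Of all 9799 genes, 55.2% differed in the same direction at both ages, and Pearson's r between the P63 and P90 differences across genes was 0.16 (Spearman's rho 0.13), given as a description since genes are not independent. Of the 491 genes higher in dmDR by 4-fold at P63, 66.6% were higher in dmDR at P90 and 18.5% by 4-fold or more, beside 57.7% and 7.19% of all genes at P90. Of the 486 genes higher in vmDR by 4-fold at P63, 52.7% were higher in vmDR at P90 and 16.9% by 4-fold or more, beside 42.3% and 5.28% of all genes. Slc17a8 was higher in vmDR by 2.17 at P63 and by 7.98 at P90, since the Slc17a8-free vmDR cells 3 and 4 and the Slc17a8-bearing dmDR cells 1 and 6 were all from P63 mice. Gad2 was higher in dmDR by 2.91 at P63 and 4.98 at P90. In the P90 cells alone, Slc17a8 was at 145 to 337 CPM in all 4 vmDR cells and at 0 in all 3 dmDR cells.

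**Figure D3:**
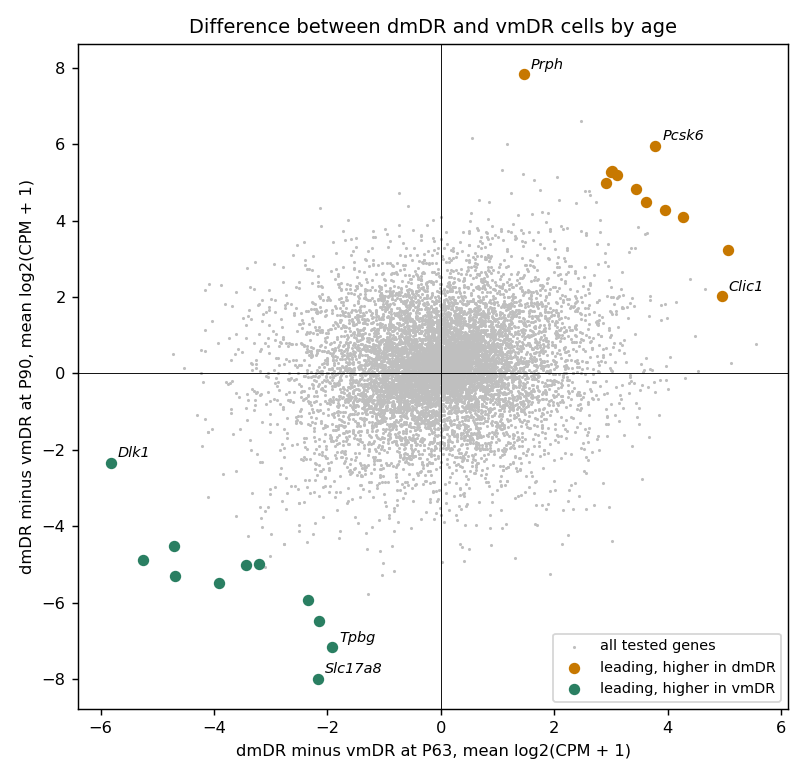
Difference between groups (dmDR minus vmDR, mean log2(CPM + 1)) at P63 on the horizontal axis and at P90 on the vertical axis, one point per gene for the 9799 tested genes, with 23 of the 24 leading genes coloured. The cloud is nearly round, with 55.2% of genes in the same direction at both ages, and the leading genes lie in its corners because they were chosen for both ages.

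Of 36 subtype transcription factors, 20 passed the filter, and 4 were higher in each group by 4-fold, with a median of -0.57 beside 0.05 over all tested genes. Past 4-fold were 2.33% of all tested genes toward dmDR and 2.12% toward vmDR, the shares to set beside the counts of each list. Among those higher in dmDR were Pax5, a paired-box factor of the midbrain-hindbrain boundary (by 2.07), the POU factor Pou3f3 (by 2.64) and Sox14, a SOX-family factor (by 2.39). Their dmDR medians were low, from 3.94 CPM for Pax5 to 34.7 CPM for Sox14, and each was at 0 in at least 1 dmDR cell. Among those higher in vmDR were the HLH inhibitor Id2 (by 2.56), the bHLH-PAS factor Npas3 (by 2.01) and the forkhead factor Foxa1 (by 2.31). Foxa1 was seen above 10 CPM in the 4 P90 vmDR cells alone among vmDR cells, and its difference at P63 was 0.023. Of 12 serotonergic identity factors, 9 passed the filter and none differed by 4-fold.

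Neuropeptide and secreted synaptic genes were mostly held by a few cells. Of 30 such genes 9 passed the filter, 2 of them higher in dmDR by 4-fold and 3 in vmDR (2.33% and 2.12% of all tested genes), with a median of -0.74. Pdyn, the precursor of dynorphin, was at 42.3 to 240 CPM in 5 dmDR cells and reached 31.7 CPM in vmDR. Crhbp, which binds and buffers corticotropin-releasing hormone, was above 10 CPM in 5 of 9 dmDR cells and had no read in vmDR cells. Its summed level in these cells was 161-fold higher against the same floor, which is no lower bound for the subdomains. Higher in vmDR were Cbln2 (by 2.80) and Cbln4 (by 2.17), cerebellin-type synaptic organizers, and Nxph1, a neurexin ligand (by 3.48), whose medians in vmDR were 133, 95.4 and 103 CPM. Below the filter, Trh, the thyrotropin-releasing hormone precursor, was above 10 CPM in dmDR cells 4, 5 and 7 (18.0, 296 and 11.2 CPM) and at 0 in every vmDR cell. Crh was above 10 CPM in dmDR cells 1, 2 and 9 and also at 0 in every vmDR cell. Npy2r, a neuropeptide Y receptor, was at 44.6, 25.0 and 209 CPM in vmDR cells 1, 6 and 7 and at 0 in every dmDR cell.

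Of 24 glutamate receptor genes, 17 passed the filter, none was higher in dmDR by 4-fold and 3 were higher in vmDR, with a median of -0.67 beside 0.05 over all tested genes. Besides Grm7 these were Grm8, another presynaptic metabotropic receptor (by 2.19), and Grin2a, an NMDA receptor subunit (by 2.34), which had medians of 18.2 and 56.5 CPM in vmDR and 0 and 2.64 CPM in dmDR cells. Of 14 serotonin receptor genes 4 passed, none past 4-fold. All 4 differences were below 0, beside 47.2% of all tested genes. The autoreceptor gene Htr1a had a median of 81.9 CPM (7.83 to 142) in dmDR and 168 CPM (41.0 to 263) in vmDR cells, with overlapping ranges. Of the peptide and amine receptors, 12 of 50 passed and 1, the histamine receptor gene Hrh3, was higher in dmDR by 4-fold. It was at 19.4 to 113 CPM in every dmDR cell and at 0 to 46.0 CPM in vmDR cells. Of 20 GABA-A and glycine receptor subunits 14 passed, and Gabrg3, a gamma subunit of GABA-A receptors, was the 1 past 4-fold, higher in vmDR by 2.40. Its difference was -0.86 at P63 and -4.52 at P90.

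Of 54 potassium channel genes 36 passed, 1 higher in dmDR and 2 in vmDR by 4-fold, with a median of -0.59. These counts are near the shares of all tested genes, 2.33% and 2.12%, and say little of the channels as a group. Kcns1, a silent subunit that modifies voltage-gated channels, was above 10 CPM in 5 of 9 dmDR cells and had no read in vmDR cells. Kcna2, a delayed rectifier subunit, was at 26.6 to 120 CPM in vmDR and 0 to 41.8 CPM in dmDR cells, and Kcnc4, a fast-repolarizing channel subunit, had medians of 27.7 and 0.744 CPM. The differences of Kcna2 and Kcnc4 were 3.41 and 3.28 in favour of vmDR at P63 but 0.53 and 0.82 at P90. Among 18 growth factor genes that passed, Kit and Bdnf, the neurotrophin that signals through TrkB, were higher in dmDR and Fgf13, an intracellular modulator of sodium channels, in vmDR (by 2.87). Bdnf was at 17.7 to 52.5 CPM in 5 dmDR cells and had no read in vmDR cells.

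Of 60 axon guidance genes 33 passed the filter, 1 was higher in dmDR by 4-fold (Unc5d) and 9 in vmDR, beside 2.33% and 2.12% of all tested genes, and the median was -0.75. At each age 7 of the 9 were higher in vmDR by at least 1, as were 79.3% of all genes past 4-fold in that direction, and the exceptions were Sema6d and Slit2, with differences of -0.92 and -0.82 at P63. Besides Unc5c, Ntng1 and Rspo3 the 9 included Plxna4, a semaphorin co-receptor at 24.0 to 184 CPM in all vmDR cells (median 71.4, dmDR median 7.92), and Epha5, an ephrin receptor at 17.2 to 214 CPM in all vmDR cells (median 98.9, dmDR median 9.56). Slit2, a repulsive ligand for Robo receptors, had a median of 70.6 CPM in vmDR and 0 in dmDR cells, and Wnt5a, a non-canonical Wnt ligand, 53.9 CPM and 0. dmDR cells 1 and 6 were high for Plxna4, Epha5, Slit2 and Wnt5a as well, dmDR cell 1 at 228, 244, 125 and 115 CPM. Sema6d, a semaphorin, and Ephb2, an ephrin receptor, made up the rest, higher in vmDR by 2.28 and 2.14.

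Of 65 cadherins, protocadherins and synaptic adhesion genes 54 passed, 2 higher in dmDR and 7 in vmDR by 4-fold, with a median of -0.50. Beside 2.33% and 2.12% of all tested genes, the dmDR count is near the general share. Tenm2, a teneurin, was at 0 in dmDR cells 1 and 6 and at 43.6 to 225 CPM in the other 7, and Cdh10, a type II cadherin, had a median of 26.0 CPM in dmDR and 1.69 CPM in vmDR cells. Higher in vmDR were 3 protocadherins, Pcdh7, Pcdh10 (by 2.37) and Pcdh19 (by 3.58), together with Nrxn3, Adgrl2 (by 3.63), the IgLON protein Ntm (by 2.97) and the atypical cadherin Fat3 (by 2.52). Pcdh10 and Ntm were above 10 CPM in all 8 vmDR cells. Of 26 heparan sulfate genes 16 passed, and the 2 past 4-fold, the sulfotransferases Hs3st5 (by 2.16) and Ndst3 (by 2.22), were higher in vmDR. Among 11 calcium-binding protein genes that passed, none differed by 4-fold.

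**Figure D4:**
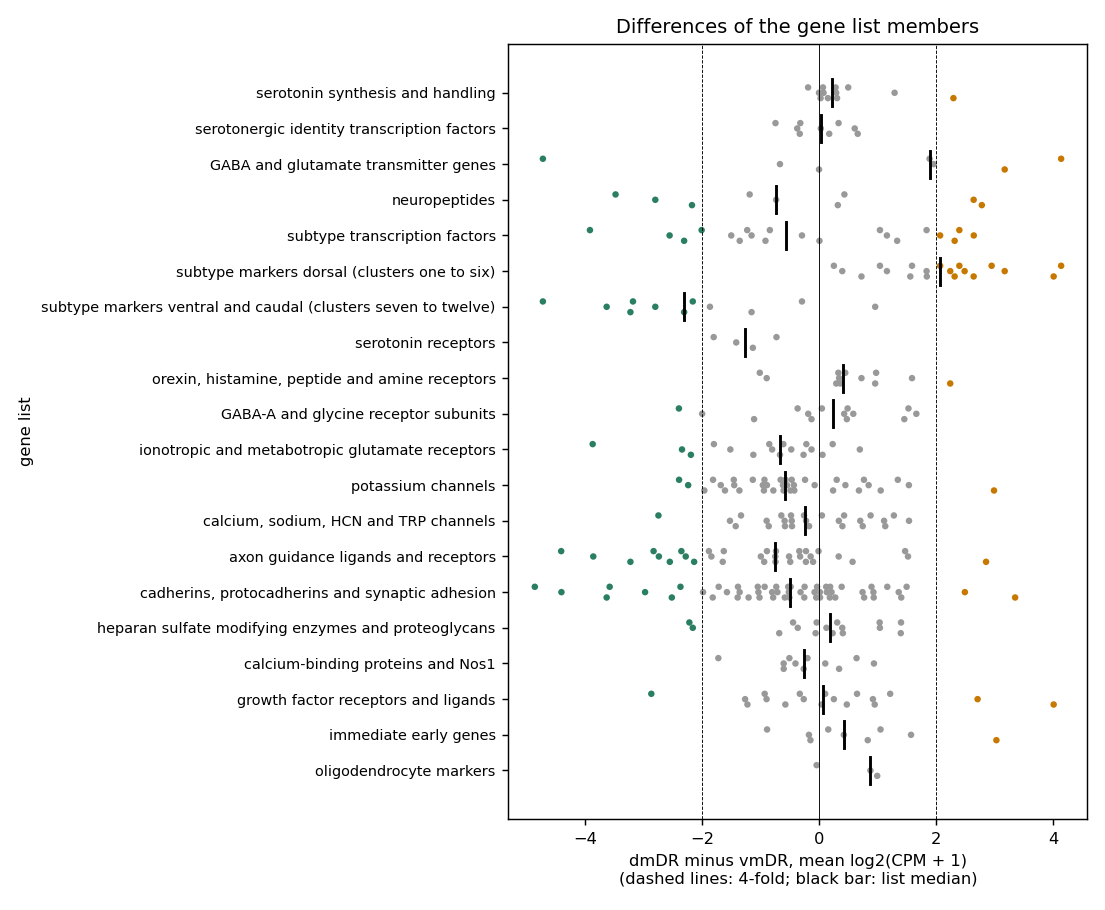
Difference between groups (dmDR minus vmDR, mean log2(CPM + 1)) for each member of the gene lists that passed the filter, one point per gene and one row per list, for lists with at least 3 such members. Dashed lines mark 4-fold, coloured points lie past it and black bars are list medians, which run from -2.31 for the ventral and caudal markers to 2.07 for the dorsal markers. The dorsal list leaves out Npas3 and Id2, which the study also ties to those groups and which were higher in vmDR.

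The immediate early gene Fos, often used as a sign of recent cell activity, was higher in dmDR by 3.03. All cells were sliced, protease-digested and dissociated before lysis, and the part of that handling was not tested. It was at 30.4 to 551 CPM (median 156) in dmDR cells, whereas vmDR cells 1, 2, 4 and 8 were at 0 to 3.10 CPM and the other 4 at 71.2 to 158 CPM. The difference was 4.48 at P63 and 0.97 at P90. Of 9 members of this list that passed, Fos was the 1 past 4-fold. Of the vmDR cells without Fos, cells 2 and 8 had the highest mitochondrial shares and cells 1 and 4 did not, and the part of that share was not tested.

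Markers that the study assigned to groups of neurons in its droplet data were then followed in the sorted cells. Of 25 markers of the dorsal groups 19 passed the filter. All 19 differences were above 0 (52.8% of all tested genes), 10 were past 4-fold (2.33%), and the median was 2.07. The list left out Npas3 and Id2, which the study also found enriched in groups that the list covers. Those 2 were higher in vmDR by 2.01 and 2.56, so the shared direction holds only for the markers chosen. Besides genes given above, the 10 past 4-fold included Prkcq, a protein kinase C isoform (medians 103 and 0.107 CPM, higher in dmDR by 0.54 at P63 and 6.16 at P90), and Col25a1, a membrane collagen (medians 194 and 36.7 CPM). Of 22 markers of ventral and caudal groups 11 passed. Of these 10 were higher in vmDR (47.2% of all tested genes), 7 of them by 4-fold (2.12%), and the median was -2.31. Tmeff2, a membrane protein with follistatin-like domains, was above 10 CPM in 4 vmDR cells and reached 3.94 CPM in dmDR cells. Of 15 markers of the groups with little Tph2 only 2 passed. A gene can pass through the group where it is high, so these counts describe the lists and are not evidence of direction.

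Slc6a4-cre cells of the same genotype from other subdomains took no part in choosing the leading genes. Of the dorsolateral (dlDR) cells 5 came from each age, and the 6 caudal (cDR) cells were all from P63 mice. The 10 dlDR cells held a median of 10 of the 12 leading dmDR genes at 10 CPM or more (5 to 11) and a median of 1.5 of the 12 leading vmDR genes (0 to 8). For comparison, dmDR cells held medians of 11 and 2 and vmDR cells medians of 3 and 11. The 6 cDR cells lay between, with medians of 5 (2 to 7) and 6 (5 to 8). Slc17a8 was at 10 CPM or more in 6 of 6 cDR and 2 of 10 dlDR cells, and Gad1 or Gad2 in 0 of 6 and 9 of 10. Tpbg was at that level in 2 of 6 cDR and 0 of 10 dlDR cells, and Nell1 in 0 of 6 and 5 of 10. The vmDR cells thus shared Slc17a8 with cDR cells, but Nell1 and Pcdh7, each at 10 CPM in at least 7 of 8 vmDR cells, were at that level in 0 and 1 of 6 cDR cells. In the 4 vmDR cells of the same age as the cDR cells, P63, Nell1 was at 19.1 to 203 CPM and Pcdh7 at 63.8 to 194 CPM.

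Complete separation of the groups was rare. In 2 genes (0.0204% of those tested) every dmDR cell exceeded every vmDR cell, and in 3 genes (0.0306%) the reverse held. These 5 are named for that reason, after their values were seen. Itm2b, a membrane protein linked to amyloid processing, was at 1282 to 2234 CPM in dmDR and 392 to 1281 CPM in vmDR cells, a difference of 0.66 on the log2 scale. Gstm1, a glutathione transferase, was at 205 to 432 CPM in dmDR and 40.1 to 179 CPM in vmDR cells. Higher in vmDR were Phf24, a PHD finger protein of neurons (22.5 to 249 CPM in dmDR, 263 to 606 CPM in vmDR), Cacng4, an auxiliary subunit of AMPA receptors (0 to 31.0 and 32.6 to 177 CPM), and Igsf3, an immunoglobulin superfamily membrane protein (0 to 11.9 and 13.9 to 92.6 CPM).

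The droplet (10X) table of the series offered cells that the dmDR and vmDR contrast did not use. They came from the full DR of other mice in 2 runs, one of Pet1::Flpe+/-; hM3Dq+/+ mice (mean age postnatal day 65.5) and one of En1::cre+/-;Pet1::Flpe+/-;RC::FrePe+/- mice (mean age postnatal day 59). The table gives no subdomain. Its 2350 cells were therefore divided, after the sorted-cell values were seen, into 647 with at least 3 Gad2 UMIs and no Slc17a8 and 745 with at least 3 Slc17a8 UMIs and no Gad2, and summed counts were compared with no test. The median depths were 61677 and 57804 UMIs, and a further 279 cells had at least 3 UMIs of both genes. Those 279 entered neither set. The split is by transmitter gene and not by position, and both genes were themselves leading genes of the contrast. By the study, Gad2 neurons also lie dorsolaterally and Slc17a8 neurons also lie caudally. The values below therefore describe variation with these genes and cannot bear on subdomain. No doublet caller was run, and the part of doublets in these values was not tested. Leaving out the 2 genes that defined the cells, 20 of the other 22 leading genes differed in the same direction as between dmDR and vmDR, 14 of them by 2-fold or more, and 19 did so in both barcode sets, which share no barcode. Prph stood at 204 CPM in the Gad2 cells and 13.9 CPM in the Slc17a8 cells, Pcsk6 at 76.3 and 7.44 CPM, and Oas1e at 13.5 and 0.311 CPM. Clic1, which had no read in vmDR cells, stood at 58.1 and 10.1 CPM. Tpbg stood at 0.768 and 39.4 CPM, Ntng1 at 4.76 and 56.8 CPM, and Unc5c at 5.45 and 33.3 CPM.

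The exceptions were Dlk1, higher in the Gad2 cells (306 against 149 CPM) although higher in vmDR cells, and Wdr24, nearly level at 8.42 and 9.28 CPM. Nell1, the leading vmDR gene, was also nearly level at 16.3 and 17.6 CPM. Of 9534 tested genes present in both tables, 47.9% were higher in the Gad2 cells. The share was 71.5% among the 221 genes higher in dmDR by 4-fold and 19.6% among the 204 genes higher in vmDR by 4-fold. By 2-fold or more, 1.69% of all genes were higher in the Gad2 cells, as were 26.2% of the genes higher in dmDR, and 1.52% of all genes were higher in the Slc17a8 cells, as were 29.4% of the genes higher in vmDR. Of the 45 list members past 4-fold that were not leading genes, 43 differed in the same direction as between dmDR and vmDR, 31 of them by 2-fold or more, though some of the lists hold markers the study chose in these droplet cells. Sox14 (23.1 and 0.383 CPM), Pax5 (74.9 and 5.48 CPM) and Gad1 (74.2 and 7.15 CPM) were higher in the Gad2 cells, and Tmeff2 (1.23 and 31.4 CPM) in the Slc17a8 cells. Crhbp, which had no read in vmDR cells, stood at 10.8 and 3.37 CPM. The 2 that went the other way were Fos, higher in dmDR but at 89.5 CPM in the Gad2 cells and 101 CPM in the Slc17a8 cells, and Ephb2, higher in vmDR but at 15.0 and 12.7 CPM.

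**Figure D5:**
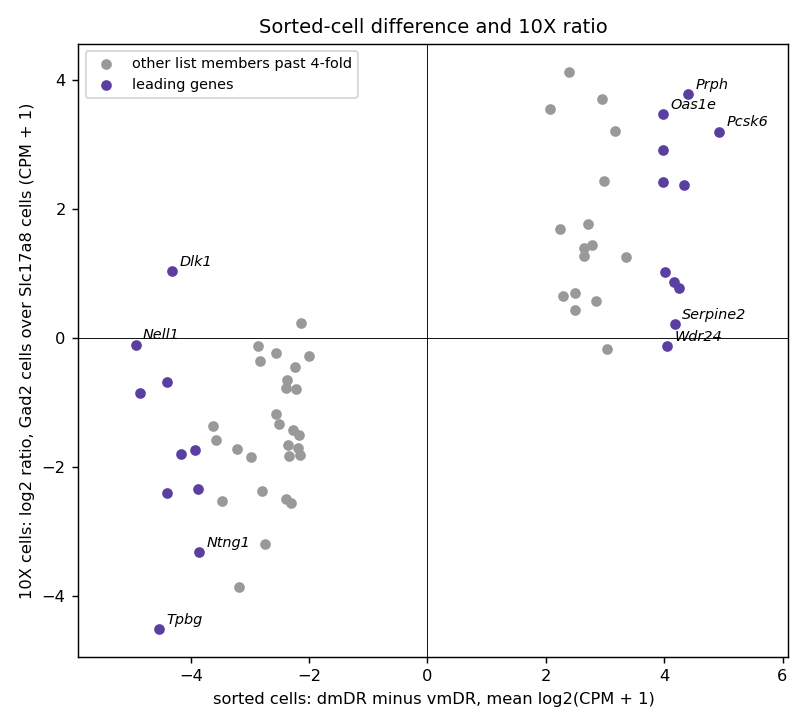
Difference between sorted dmDR and vmDR cells (mean log2(CPM + 1), horizontal) against the log2 ratio of summed CPM + 1 between 10X cells with Gad2 and 10X cells with Slc17a8 (vertical), one point per leading gene or list member past 4-fold, leaving out Gad2 and Slc17a8. Of the 21 leading genes plotted, 19 lie in the lower left or upper right quadrant, and Dlk1 and Wdr24 do not.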

How the data were processed

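The authors sorted EGFP-labelled cells by hand from dissected subdomains of at least 2 mice per condition, made SMART-Seq v4 and Nextera XT libraries and aligned reads with STAR 2.5.4 to mm10. They deposited read counts per gene and cell, unfiltered, with no molecular identifiers. The 10X UMI counts, deposited by the authors after filtering, came from Cell Ranger 3.0.2. Their filters left out libraries with few genes and those outlying for high UMI or gene number, and the sources used here name no doublet caller. Libraries were sequenced on 1 of 2 instruments, and which cell went to which is not given in the sources used here. Counts of 24256 genes were scaled to CPM over all genes of a cell. Genes with at least 10 CPM in at least 4 of the 17 cells were kept, and groups were compared by the difference of mean log2(CPM + 1), past 4-fold at 2 or more, with no test. Python 3.11.15, pandas 2.3.3 and scipy 1.17.1 were used, and edgeR 4.0.16 gave TMM factors for an alternative. The calculation was tested on simulated data. Named were the 12 leading genes in each direction with a difference of at least 1 at each age (predicted, ribosomal and mitochondrial genes not named), list members past 4-fold, and transmitter, peptide, factor and receptor genes the study discusses. Some genes picked this way enter the counts but are not reported here. Members and gene lists were chosen with earlier results of these data known. Xist had 0 reads in all 70 sorted cells and was not used. Alternatives were another scaling, pseudocount, filter, summary or age, and each cell left out.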

Additional observations from a re-analysis of the deposited data

Results flagged for a closer look

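In 52 group and measure combinations, single cells standing far from the rest of their group were sought by Dixon's criterion, and 16 met it. Chance gives about 1 in 20 for normally distributed values, a rate that does not hold here, because most of the measures are leading genes chosen for lying low in one group. For Spag5 and Wdr24 in vmDR, at 0 in all cells but 1, the single cell with reads meets the criterion by construction. Levels here are log2(CPM + 1). dmDR cell 4 had the fewest genes with a read, 7379, the next dmDR cell having 8985. vmDR cell 8 had 17.1% mitochondrial reads, the next vmDR cell 7.32%.

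Among dmDR cells the low ones were cell 9 for Stxbp2 (3.98), cell 4 for Serpine2 (4.08), cell 2 for Wdr24 (3.28), cell 5 for Kit (1.85) and cell 1 for Prmt8 (2.72), and cell 1 was high for Nell1 (4.70). Among vmDR cells, cell 3 was high for Gad2 (9.88), Oas1e (3.91) and Nrxn3 (9.67), cell 7 for Spag5 (2.81) and cell 2 for Wdr24 (7.03). The low ones were cell 6 for Unc5c (2.64), cell 7 for Dlk1 (3.41) and cell 2 for Grm7 (2.20). Without any 1 of the 17 cells the differences of all 24 leading genes stayed past 4-fold. None of the genes screened for it separated the groups fully in opposite directions at the 2 ages.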

How the results depend on the processing

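The counts of genes past 4-fold (228 higher in dmDR, 208 in vmDR) varied with the processing and with the cells used. They were 13 and 15 with a pseudocount of 10 CPM, 618 and 563 with group medians, 133 and 135 with the ratio of mean CPM, 491 and 486 in P63 cells alone and 705 and 517 in P90 cells alone. With 10 CPM required in 8 cells, 161 and 138 remained, from fewer genes tested. TMM and median-of-ratios scaling, totals without mitochondrial genes and no filter gave 219 to 235 and 214 to 223. Leaving out each cell in turn gave 187 to 317 and 187 to 256, the extremes without vmDR cells 8 and 7 and without dmDR cell 4 and vmDR cell 8. Without vmDR cells 2 and 8 together, an alternative chosen after seeing the data, the counts were 155 and 300 and the median difference over all genes was -0.10. With the differences at the 2 ages weighted equally, also chosen after seeing the data, they were 264 and 201. Of the 24 leading genes 18 stayed past 4-fold with the pseudocount of 10 CPM and 18 with the ratio of mean CPM. In P63 cells alone 22 stayed, and all 24 did under each other setting that can change a difference. A different filter leaves each difference as it was, so that retention there was fixed in advance. With 10 CPM required in 8 cells, Tpbg and Clic1 were not tested. Of the 45 other list members past 4-fold 2 stayed so with the pseudocount of 10 CPM, 16 with the ratio of mean CPM, 24 in P63 cells alone, 36 in P90 cells alone, 40 with medians, 39 without vmDR cells 2 and 8, 42 with the ages weighted equally, 38 to 45 with any 1 cell left out and 45 under either other scaling or without mitochondrial genes in the totals. In the ratio of mean CPM, the values were 0.47 for Gad2, 0.97 for Wdr24, 1.12 for Prmt8 and -1.40 for Dlk1. Foxa1 changed sign in P63 cells alone, at 0.023. No paired analysis was possible because replicate numbers only name cells. Age, which both groups share, was taken as a block by weighting the ages equally. The animals are not named, and 9 against 8 cells limit the precision of every difference.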
